A study of Mus musculus with 12 samples.

Results

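TRBJ1-end chains are T cell receptor (TCR) beta chains, TRB, whose CDR3 closes with the residues encoded by a joining segment of the first mouse TRBJ cluster. A row of the table of all chains was taken as a member if its CDR3 was in frame and fully read, began with CA, and ended in TEVFF (TRBJ1-1), SDYTF (TRBJ1-2), GNTLYF (TRBJ1-3), ERLFF (TRBJ1-4), QAPLF (TRBJ1-5) or SPLYF (TRBJ1-6). This found 1543 of the 14151 rows. Of these, 1530 carried a TRB segment name, and rows with the same bases in the same library were joined into 1092 clones, out of 6315 productive TRB clones in all. The members held 193813 of 746357 productive TRB reads, or 26.0%, and 3180 further clones closed with an end of the second cluster, TRBJ2.

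The sorted cells were CD8+ and stained with a tetramer of Rpl18, and they were taken on day 10 after mice were injected with MC38, a mouse colon carcinoma line. WT mice were compared with KO mice, in which TrIP is deleted in CD8 cells, and cells came from the tumor or from the tumor-draining lymph node (TDLN), which gives 4 groups of 3 libraries. The table of all chains held rows for 8 of the 12 libraries: WT tumor 2, 3 and 4, KO tumor 1, 2 and 3, WT TDLN 4 and KO TDLN 3. It held none for the remaining libraries, all from TDLN. The labels give neither the driver of the deletion nor the age, sex or strain of the mice, and do not say whether libraries come from pooled animals, so p-values measure only the spread between these libraries. The knockout itself could not be checked, since receptor rows carry no expression of the gene.

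A TRB chain is assembled from a V, a D and a J segment. The mouse locus on chromosome 6 holds 2 D-J-C blocks in the order Trbd1, Trbj1-1 to Trbj1-7, Trbc1, Trbd2, Trbj2-1 to Trbj2-7 and Trbc2, by RefSeq's GRCm38.p6 annotation. Joining deletes the DNA between the segments, so Trbd1 can join a segment of either cluster, while Trbd2 lies downstream of the whole TRBJ1 cluster. The CDR3 is the loop that meets the peptide. Its start comes from the V segment, its end from the J segment, and the part between from the D segment and from bases trimmed or added at the joints.

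Below, a clone is named by the residues of its middle and its end, with the first 4 residues given beside it. The start was cut as these 4 residues, and the middle as all residues between them and the end letters. The middle can therefore also hold residues of the V or J segment, and the start can hold bases of the joint. The 6 ends are shown first, because they define the members. Each line gives the most frequent last 15 bases of the clones with that end.
TRBJ1-1 end: acagaagtcttcttt
TRBJ1-2 end: tccgactacaccttc
TRBJ1-3 end: aatacgctctatttt
TRBJ1-4 end: gaaagattatttttc
TRBJ1-5 end: caggctccgcttttt
TRBJ1-6 end: tcgcccctctacttt
Between 99.6% (TRBJ1-6) and 99.9% (TRBJ1-1) of the reads of an end carried exactly these bases. The TRBJ2-4 segment closes with NTLYF too, but with other bases, and a G before it would make the same 6 residues. Among the 407 clones with the GNTLYF end, 3 clones with 40 reads lay nearer to the TRBJ2-4 bases, which differ from those of TRBJ1-3 at 5 of 15 places.

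The clones that carried most of the reads are shown next, since values weighted by reads depend on the largest clone of a library. That clone held 36.9% (KO tumor 3) to 91.4% (WT tumor 4) of member reads in tumor, and 12.5% in KO TDLN 3. The middle is in capitals, and the 4 start codons and the end are in lower case.
SQQGAG-GNTLYF, start CASS: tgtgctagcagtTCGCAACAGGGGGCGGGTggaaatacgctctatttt
GTLNS-GNTLYF, start CASS: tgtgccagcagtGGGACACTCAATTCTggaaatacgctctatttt
FSDRPS-GNTLYF, start CASS: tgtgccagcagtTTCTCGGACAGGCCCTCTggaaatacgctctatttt
DNRA-GNTLYF, start CASS: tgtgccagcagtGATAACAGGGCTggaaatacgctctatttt
VGGAN-SDYTF, start CASR: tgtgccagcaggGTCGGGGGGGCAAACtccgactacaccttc
PSGTTN-SDYTF, start CASS: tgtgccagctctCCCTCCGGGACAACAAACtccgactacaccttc
EHVSN-ERLFF, start CASS: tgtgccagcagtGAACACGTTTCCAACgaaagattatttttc
RGQGWN-ERLFF, start CASS: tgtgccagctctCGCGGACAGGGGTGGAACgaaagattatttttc
FSYNN-QAPLF, start CASS: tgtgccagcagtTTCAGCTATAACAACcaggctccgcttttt
LAGAAN-TEVFF, start CAWS: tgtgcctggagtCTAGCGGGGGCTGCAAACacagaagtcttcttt
VTHSYN-SPLYF, start CASS: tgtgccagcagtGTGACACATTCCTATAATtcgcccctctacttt
The letters GACAGG, taken here as the mark of Trbd1, can be read in the middles of FSDRPS-GNTLYF and RGQGWN-ERLFF. None of these 11 clones holds GACTGG, the mark taken for Trbd2.

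Libraries did not hold separate sets of clones, which bears on every comparison below. The library names carry a letter that a TDLN and a tumor library have in common. No label says that the letter stands for a mouse. Under different letters, 7 member clones, identical in every base, each held 0.1% or more of the TRB reads in 2 libraries. SQQGAG-GNTLYF was the leading clone of WT tumor 4 and was also found in KO tumor 1, across genotypes. VGGAN-SDYTF was large in KO tumor 2 and KO tumor 3, and EHVSN-ERLFF in WT tumor 3 and WT tumor 2. LAGAAN-TEVFF lay in WT tumor 3 and in KO TDLN 3. Exact tests over libraries treat them as independent, and the differences between genotypes are therefore also given without the clones that were large under 2 letters.

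Productive TRB reads ranged from 23755 to 188616 per library, with a median of 87649. Over all chains, 106344 to 516159 reads were assembled per library. Reads of TRBJ1-end clones ranged from 5791 in WT TDLN 4 to 87798 in WT tumor 4. No molecular identifiers are described, so intervals and detection limits cover counting error only.

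TRBJ1-end chains were a large minority in some libraries and a small one in others. Their share of productive TRB reads was 21.5%, 8.79% and 46.5% in WT tumor 2, 3 and 4, and 35.1%, 14.3% and 10.6% in KO tumor 1, 2 and 3. It was 24.4% in WT TDLN 4 and 26.7% in KO TDLN 3. Both tumor groups spanned low and high values and overlapped. Counting error was small against this spread: the 95% Wilson interval was 46.3% to 46.8% in WT tumor 4 and, at the smallest depth, 23.8% to 24.9% in WT TDLN 4. The authors' deposited fractions, summed over the same rows, ranged from 8.69% in WT tumor 3 to 45.6% in WT tumor 4. Counted as clones in place of reads, the members made up 11.3% to 22.0% of the productive TRB clones of a library, a narrower range than by reads. That total also holds clones counted neither as TRBJ1-end nor as TRBJ2-end.

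In tumor, the share averaged 25.6% ± 19.2 (SD, n = 3) in WT and 20.02% ± 13.2 (SD, n = 3) in KO. The difference, KO minus WT, was -5.60 percentage points (exact two-sided permutation test, p = 0.7, and 0.857 after Benjamini-Hochberg adjustment over 16 tests). With 3 libraries against 3 the smallest p this test can give is 0.1. WT tumor 4 decided the direction, since the difference was 4.87 points without that library. Leaving out the clones that were large under 2 letters, which were 32 TRB clones with any end and 7 of them members, moved it to 5.77 points (exact permutation p = 0.7), so neither size nor direction was stable. That setting cut the libraries unevenly. It removed 1.98% of the member reads of WT tumor 2 and 92.4% of those of WT tumor 4, and it also took non-member clones out of the TRB reads.

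**Figure D1:**
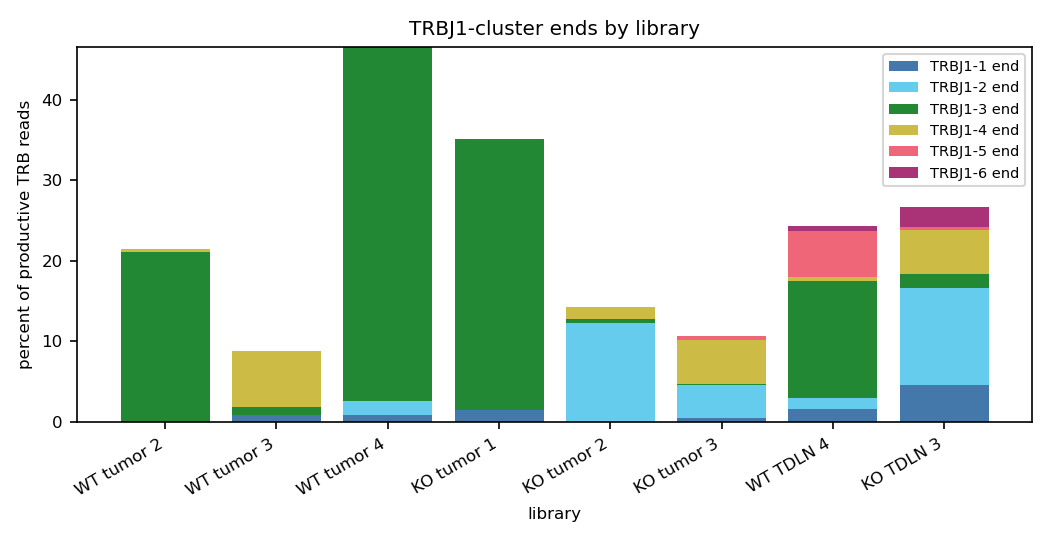
Share of productive TRB reads (percent, vertical axis) of each TRBJ1-cluster end in the 8 libraries (horizontal axis), stacked, with 1 bar per library and no error bars. The TRBJ1-3 end fills most of the bar in WT tumor 2, WT tumor 4 and KO tumor 1, and the TRBJ1-2 end most of that in KO tumor 2.

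Pooled over libraries, the TRBJ1-3 end held 66.9% of member reads with 407 clones, followed by TRBJ1-2 with 16.5% and 269 clones and TRBJ1-4 with 9.73% and 214 clones. TRBJ1-1 held 4.45% (137 clones), TRBJ1-5 1.24% (31 clones) and TRBJ1-6 1.23% (34 clones). These pooled reads weight WT tumor 4 most. Library by library the order changed, as follows.

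The TRBJ1-3 end took 21.1%, 1.05% and 43.9% of TRB reads in WT tumor 2, 3 and 4, and 33.6%, 0.551% and 0.0336% in KO tumor 1, 2 and 3. It took 14.5% in WT TDLN 4 and 1.79% in KO TDLN 3. WT tumor 2, WT tumor 4 and KO tumor 1 were high and the remaining 3 tumor libraries low, so high values occurred in both genotypes. In each high library 1 clone made up most of this end: 85.0% of it in WT tumor 2 (FSDRPS-GNTLYF), 97.0% in WT tumor 4 (SQQGAG-GNTLYF) and 71.4% in KO tumor 1 (GTLNS-GNTLYF).

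The TRBJ1-2 end took 0.0281%, 0.00367% and 1.82% in WT tumor 2, 3 and 4, and 0.00463%, 12.2% and 4.13% in KO tumor 1, 2 and 3. It took 1.43% in WT TDLN 4 and 12.04% in KO TDLN 3. KO tumor 2 and 3 lay above every WT tumor library, and KO tumor 1 lay below WT tumor 2 and WT tumor 4. VGGAN-SDYTF alone was 79.8% of this end in KO tumor 2 and 54.4% in KO tumor 3, so the high values of these libraries share a clone.

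The TRBJ1-4 end took 0.408%, 6.86% and 0% in WT tumor 2, 3 and 4, and 0.00694%, 1.43% and 5.44% in KO tumor 1, 2 and 3. It took 0.497% in WT TDLN 4 and 5.42% in KO TDLN 3. The 0 in WT tumor 4 allows a share of up to 0.00159%. Each genotype thus held 1 tumor library above 5% and others far below.

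The other ends were small in tumor. The TRBJ1-1 end ranged from 0 in KO tumor 2, which allows up to 0.00296%, to 1.53% in KO tumor 1, and reached 4.54% in KO TDLN 3. The TRBJ1-5 end had no read in WT tumor 2, 3 and 4 or in KO tumor 2, and its highest tumor value was 0.527% in KO tumor 3. In WT TDLN 4 it took 5.65%, of which FSYNN-QAPLF was 50.0%. The TRBJ1-6 end stayed at or below 0.0454% in tumor and took 0.720% in WT TDLN 4 and 2.42% in KO TDLN 3. All 6 ends had reads in both TDLN libraries. With 1 library per genotype from TDLN, no test of tissue or of genotype in TDLN was made.

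None of the 6 ends differed between genotypes in tumor beyond the spread of the libraries. The differences, KO minus WT, were 0.120 points for TRBJ1-1, 4.84 for TRBJ1-2, -10.6 for TRBJ1-3, -0.131 for TRBJ1-4, 0.176 for TRBJ1-5 and 0.0118 for TRBJ1-6. Exact permutation p-values ranged from 0.3 for TRBJ1-2 to 1. Without the clones that were large under 2 letters the differences were -2.19, -5.04, 1.79, 10.7, 0.279 and 0.242 points in the same order, with exact permutation p-values from 0.2 to 0.9, so TRBJ1-1 to TRBJ1-4 changed direction. The TRBJ1-2 difference was 1.45 points without KO tumor 2, and the TRBJ1-5 difference 0.000578 points without KO tumor 3. Over the 12 TRBJ ends of both clusters, 0% had tumor groups that did not overlap, and the 6 ends described here likewise had none.

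Within each tumor library most TRBJ1-end reads came from a handful of clones. The number of clones needed to hold 90% of them was 2, 3 and 1 in WT tumor 2, 3 and 4, and 4, 4 and 7 in KO tumor 1, 2 and 3. It was 8 in WT TDLN 4 and 27 in KO TDLN 3. Clones at 0.1% or more of TRB reads numbered 3, 4 and 5 in WT tumor, 9, 5 and 8 in KO tumor, 13 in WT TDLN 4 and 34 in KO TDLN 3. These counts leave out 1-base variants of clones at least 100 times larger, but not of clones less far above them. In KO tumor 1 they still hold a second spelling of GTLNS-GNTLYF (534 reads) and WTLNS-GNTLYF (287 reads). Each lies 1 base from the leading clone with 20742 reads. Counts of other libraries hold such neighbours too. WT tumor 3 holds a second spelling of EHVSN-ERLFF (118 reads against 5402). WT TDLN 4 holds DNRA-GNTLYF with start CAGS (56 reads against 2664 with start CASS). KO TDLN 3 holds PSWTTN-SDYTF (149 reads against 2972 of PSGTTN-SDYTF). These examples were chosen after their values were seen.

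The largest members differed from library to library. FSDRPS-GNTLYF held 17.9% of the TRB reads of WT tumor 2, followed by EPKGS-GNTLYF (start CASG) with 2.81%. EHVSN-ERLFF held 6.60% in WT tumor 3, followed by DAKGR-GNTLYF (start CASG) with 0.983%. SQQGAG-GNTLYF held 42.6% in WT tumor 4, followed by LTS-SDYTF (start CASS) with 1.79%.

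In KO tumor 1 the largest were GTLNS-GNTLYF with 23.99% and SQQGAG-GNTLYF with 6.38%. In KO tumor 2 they were VGGAN-SDYTF with 9.77% and DRRRN-ERLFF (start CASS) with 1.39%. RGQGWN-ERLFF held 3.92% in KO tumor 3 and VGGAN-SDYTF 2.25%. The leading clones of 3 tumor libraries thus carried a TRBJ1-3 end, of 2 a TRBJ1-4 end and of 1 a TRBJ1-2 end.

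In the TDLN libraries, DNRA-GNTLYF held 11.2% and EGRA-GNTLYF (start CASS) 2.90% of the TRB reads of WT TDLN 4. PSGTTN-SDYTF held 3.35% and GTAN-SDYTF (start CASS) 3.27% in KO TDLN 3, and VTHSYN-SPLYF, the largest clone with a TRBJ1-6 end in any library, held 2.27% there. LAGAAN-TEVFF, the TRBJ1-1 clone with the highest share of the member reads of its library, held 0.850% in WT tumor 3 and 0.323% in KO TDLN 3.

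**Figure D2:**
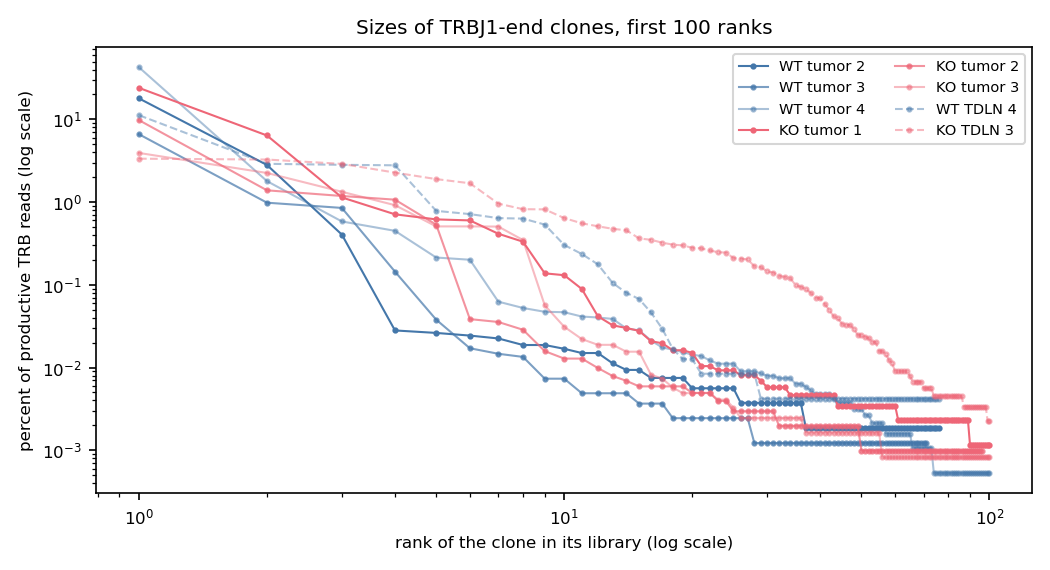
Share of productive TRB reads (percent, log scale) of each TRBJ1-end clone against its rank in its library (log scale), for the first 100 ranks, with 1 line per library, solid for tumor and dashed for TDLN. WT tumor 4 starts highest, at 42.6%, and KO TDLN 3 starts lowest, at 3.35%, but holds the most clones above 0.1%.

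The largest clone took 83.2%, 75.2% and 91.4% of TRBJ1-end reads in WT tumor 2, 3 and 4, and 68.3%, 68.5% and 36.9% in KO tumor 1, 2 and 3. It took 46.0% in WT TDLN 4 and 12.5% in KO TDLN 3. Every WT tumor library lay above every KO tumor library. The means were 83.3% ± 8.14 (SD, n = 3) in WT and 57.9% ± 18.2 (SD, n = 3) in KO, a difference of -25.4 points. The exact permutation p was 0.1, the smallest this design can give, and 0.4 after adjustment, so the difference did not pass the test. Without KO tumor 3 it was -14.9 points (exact permutation p = 0.2).

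Clonality, which is 0 when all clones are equal in size and 1 when a single clone holds all reads, ran the same way. It averaged 0.846 ± 0.0597 (SD, n = 3) in WT tumor and 0.704 ± 0.0894 (SD, n = 3) in KO tumor, again without overlap, a difference of -0.142 (exact permutation p = 0.1, adjusted 0.4). Without the clones that were large under 2 letters, the difference in clonality was 0.0239 and that in the largest clone -2.89 points (exact permutation p = 1 for both). Among TRBJ2-end clones of the same libraries, KO minus WT was -0.0674 for clonality and -12.02 points for the largest clone. Whether the TRBJ1-end and TRBJ2-end differences differ from each other was not tested.

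The number of clones per library was 76, 71 and 136 in WT tumor 2, 3 and 4, and 178, 96 and 136 in KO tumor 1, 2 and 3, with 76 in WT TDLN 4 and 323 in KO TDLN 3. Most of these were small: 54.8% of the 1092 had a single read, and 71.5% lay 1 base from a clone at least 100 times larger in the same library. These 1-base variants held 1.78% of member reads. SQQGAG-GNTLYF alone had 65 of them in WT tumor 4, with 2.05% as many reads as the clone itself. Rarefied to 7188 member reads, WT tumor libraries held 59.6 ± 11.1 clones (SD, n = 3) and KO tumor libraries 80.4 ± 14.1 (SD, n = 3). The difference of 20.8 clones did not pass the test (exact permutation p = 0.2, adjusted 0.64), and it ranged from 13.6 without KO tumor 3 to 37.9 without WT tumor 3. With the 1-base variants left out, the difference was 7.92 clones (exact permutation p = 0.2). It was -7.85 clones, exact permutation p = 0.8, without the clones that were large under 2 letters. Each of these alternatives was rarefied to the smallest number of member reads left in its own tumor libraries, such as 11489 without WT tumor 3. Differences in clone number between settings therefore also reflect unlike depths.

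**Figure D3:**
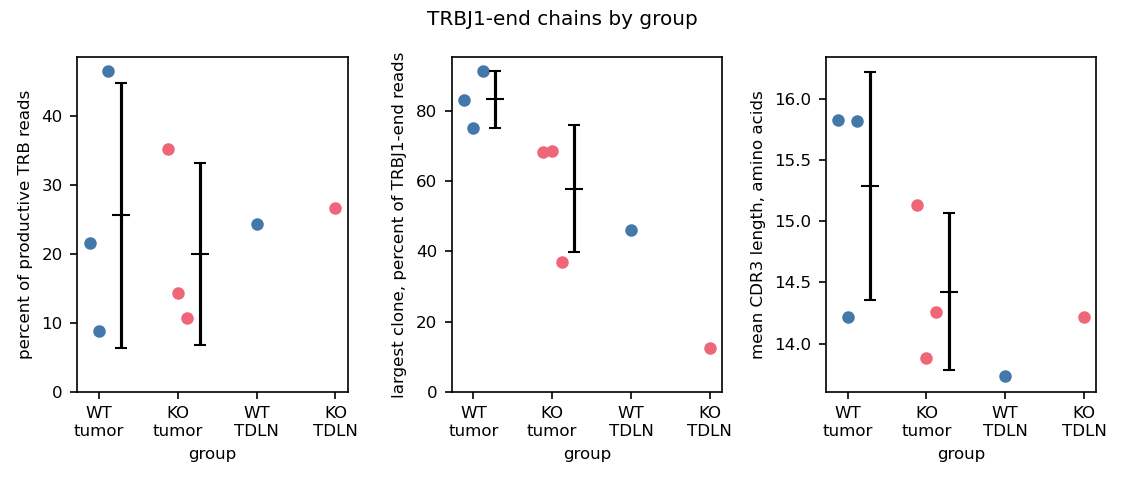
Share of productive TRB reads (percent, left), share of the largest clone among TRBJ1-end reads (percent, middle) and read-weighted mean CDR3 length (amino acids, right) by group. Points are libraries (blue WT, red KO), the horizontal dash is the mean and the bar ± 1 SD of the 3 tumor libraries of a genotype. The tumor groups are apart for the largest clone (75.2% to 91.4% in WT, 36.9% to 68.5% in KO) and overlap for the share and the length.

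CDR3 lengths, counted from the conserved C to the F of the end, ran from 11 to 17 residues. By clones, 28.9% had 15 residues, 26.0% had 14 and 21.2% had 16. By reads, 51.9% had 16 residues, the length of SQQGAG-GNTLYF and of FSDRPS-GNTLYF. The ends differed in length, with read-weighted means of 13.9 residues for TRBJ1-1, 13.6 for TRBJ1-2, 15.7 for TRBJ1-3, 14.8 for TRBJ1-4, 12.7 for TRBJ1-5 and 14.9 for TRBJ1-6. Clones with the TRBJ1-3 end were longer than those with the TRBJ1-2 end by clone count as well, with means of 15.4 and 13.6 residues. The germline segments themselves differ in length, and the trimming at each joint was not measured.

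Between genotypes in tumor, the read-weighted mean length was 15.8, 14.2 and 15.8 residues in WT tumor 2, 3 and 4, and 15.1, 13.9 and 14.3 in KO tumor 1, 2 and 3. The groups overlapped, and the difference was -0.863 residues (exact permutation p = 0.3, adjusted 0.667). It was -1.40 residues without WT tumor 3, and -0.265 residues (exact permutation p = 0.8) without the clones that were large under 2 letters.

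The TRBD2 letters GACTGG were found in 17 of the 1092 TRBJ1-end clones, or 1.56%, against 695 of the 3180 TRBJ2-end clones, or 21.9%. In 15 of the 17 the letters were not in the middle alone: the middle ends in GACT and the TRBJ1-3 end begins with GG, so the junction spells them. The clone with the most reads among these shows the join, with the last capitals meeting the end in lower case. It was chosen after its values were seen, like the other clone on the lines that follow.
QDFQGAT-GNTLYF, start CASS: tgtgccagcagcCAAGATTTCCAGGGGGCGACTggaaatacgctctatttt
DW-GNTLYF, start CAWR: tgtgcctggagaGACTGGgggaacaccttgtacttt
Only 2 member clones held GACTGG wholly within the middle, both of them DW-GNTLYF in KO tumor 3, with starts CAWR (38 reads) and CACR (1 read). Both close with the TRBJ2-4 bases, so by their bases they are among the 3 GNTLYF clones nearer to TRBJ2-4. No clone whose end matched the TRBJ1 bases held the TRBD2 letters within its middle. Among TRBJ2-end clones 653, or 20.5%, did.

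By library, GACTGG lay wholly within the middle in 0 TRBJ1-end clones in 7 of 8 libraries and in 1.47% of them in KO tumor 3. Among TRBJ2-end clones the shares were 2.05%, 23.5% and 31.1% in WT tumor 2, 3 and 4, and 29.9%, 18.7% and 21.2% in KO tumor 1, 2 and 3. They were 21.6% in WT TDLN 4 and 11.5% in KO TDLN 3. The share was lower for TRBJ1-end clones in each of the 8 libraries.

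With the letters counted anywhere in the CDR3, the mean over tumor libraries was 1.37% ± 2.70 (SD, n = 6) for TRBJ1-end and 21.4% ± 10.9 (SD, n = 6) for TRBJ2-end clones. The difference within libraries was -20.1 points, in the same direction in 6 of 6 (exact sign-flip test, p = 0.03125, the smallest it can give, and 0.25 after adjustment). Within the middle alone, a setting chosen after seeing the data, it was -20.8 points with the same p. The order of the locus sets this direction in advance, so the test serves only as a check of how ends and letters were read. Many clones of a library are 1-base variants of another and repeat its letters. With the variants left out, GACTGG within the middle remained in 2 of 311 TRBJ1-end clones (0.643%) and in 153 of 854 TRBJ2-end clones (17.9%).

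The TRBD1 letters GACAGG, which can join either cluster, were found in 148 TRBJ1-end clones (13.6%) and in 310 TRBJ2-end clones (9.75%). By library they were in 53.9%, 4.23% and 10.3% of TRBJ1-end clones in WT tumor 2, 3 and 4, in 2.81%, 2.08% and 30.9% in KO tumor 1, 2 and 3, in 18.4% in WT TDLN 4 and in 8.36% in KO TDLN 3. WT tumor 2 and KO tumor 3 were high. Their leading clones, FSDRPS-GNTLYF and RGQGWN-ERLFF, hold these letters. The difference within tumor libraries was 7.05 points, positive in 2 of 6 (exact sign-flip test, p = 0.75, adjusted 0.857), and -1.30 points without WT tumor 2. No clone of either class held both sets of letters. Of the TRBJ1-end clones, 927 held neither, so the D segment of most could not be read by 6 intact letters.

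**Figure D4:**
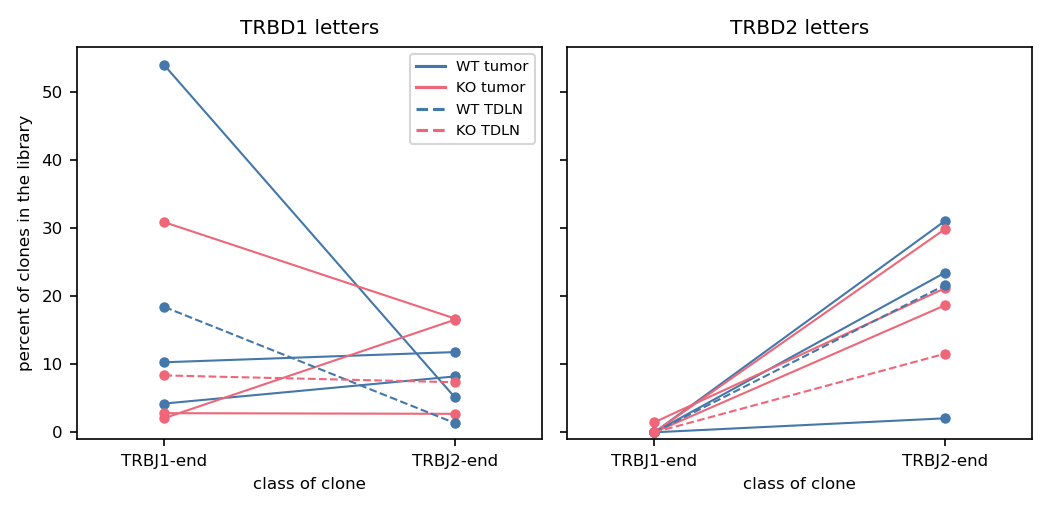
Percent of clones (vertical axis) that hold the TRBD1 letters (left) or the TRBD2 letters (right) wholly within the CDR3 middle, for TRBJ1-end and TRBJ2-end clones, with 1 line per library, blue for WT and red for KO, solid for tumor and dashed for TDLN. The TRBD2 letters lie at 0 to 1.47% in TRBJ1-end clones and at 2.05% to 31.1% in TRBJ2-end clones, while the lines for the TRBD1 letters cross.

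Motifs of the middle, which can include residues of the V or J segment, varied widely between libraries. GG occurred in 14.7% ± 17.6 of TRBJ1-end clones and 37.0% ± 9.58 of TRBJ2-end clones (mean ± SD over 8 libraries), as a description with no test. In KO tumor 2 it occurred in 51.0% of TRBJ1-end and 51.1% of TRBJ2-end clones, but variants of its clones VGGAN-SDYTF and RGGG-SDYTF, which hold GG, are counted there. With 1-base variants left out, GG was in 4 of 20 TRBJ1-end clones of KO tumor 2 against 41.2% of its TRBJ2-end clones, and over the 8 libraries in 14.2% ± 6.92 against 36.4% ± 6.46. Proline occurred in 19.7% ± 27.0 and 19.5% ± 5.95 of the clones, with a range of 3.13% to 82.9% for TRBJ1-end clones. Basic residues (K or R) occurred in 42.5% ± 22.4 and 51.9% ± 15.7, acidic residues (D or E) in 41.2% ± 27.4 and 36.3% ± 16.1, GQG in 3.95% ± 7.65 and 4.98% ± 5.75, and GTG in 1.37% ± 2.20 and 1.36% ± 2.00.

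The middle, between the first 4 residues and the end letters, was shorter in TRBJ1-end clones, with 5.26 ± 0.352 residues against 5.80 ± 0.311 in TRBJ2-end clones (SD, n = 6). The difference of -0.535 residues ran the same way in 6 of 6 tumor libraries (exact sign-flip test, p = 0.03125, adjusted 0.25). The letters that define the ends differ in number, with only 4 for the EQYF end of TRBJ2-7. The middle can thus keep more residues of the J segment for some ends than for others. Without that end the difference was -0.470 residues, with an exact sign-flip p of 0.0625, and for the whole CDR3 it was 0.150 residues with a p of 0.656.

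Starts, taken as the first 4 residues and so not a reading of the V segment alone, were CASS in 85.9% of member reads. CASR followed with 6.996%, CASG with 4.13% and CAWS with 1.75%. By clones CASS made up 63.9% of TRBJ1-end and 67.7% of TRBJ2-end clones. CASR was high in KO tumor 2, with 69.4% of member reads, in KO tumor 3 with 21.5% and in WT TDLN 4 with 11.5%, and at or below 0.113% in the other libraries. In KO tumor 2 and 3 most of it was VGGAN-SDYTF. CASG took 13.3% of member reads in WT tumor 2, 11.5% in WT tumor 3 and 13.4% in KO TDLN 3, and at most 3.88% in the others.

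Most sequences were found under a single letter. Of the 584 CDR3 amino acid sequences, 519 (88.9%) lay under 1 letter, 54 under 2, 9 under 3, 1 under 4 and 1 under 5. Both of the most widespread close with the TRBJ1-2 end, and their leading base sequences are shown because the same residues can be spelled by different bases.
RGGG-SDYTF, start CAWS: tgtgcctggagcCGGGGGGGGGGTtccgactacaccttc
GTAN-SDYTF, start CASS, leading in KO TDLN 3: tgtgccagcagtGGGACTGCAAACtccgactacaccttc
GTAN-SDYTF, start CASS, leading in KO tumor 2: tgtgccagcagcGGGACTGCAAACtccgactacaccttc

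RGGG-SDYTF, under 5 letters, had 1096 reads in KO tumor 2 and 626 in KO tumor 3, and 1 read each in WT tumor 2, WT tumor 3 and WT TDLN 4. The leading base sequence was the same in all 5. It was thus large in a pair of KO tumor libraries and at the lowest possible count elsewhere.

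GTAN-SDYTF, under 4 letters, had 2923 reads in KO TDLN 3, 1205 in KO tumor 2 and 426 in KO tumor 3, and 1 read each in KO tumor 1 and WT tumor 2. Its leading bases differed: the codon before the middle was agt in KO TDLN 3 and KO tumor 1, and agc in KO tumor 2, KO tumor 3 and WT tumor 2. The same residues were therefore spelled by at least 2 base sequences, each of them large in at least 1 KO library.

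Of the 28 pairs of libraries, 21 shared at least 1 TRBJ1-end clone by bases, with a median of 1. WT tumor 4 and KO tumor 1 shared 39, which is 28.7% of the clones of the first and 21.9% of those of the second. KO tumor 2 and KO tumor 3 shared 32, or 33.3% and 23.5%, and KO tumor 1 and KO TDLN 3 shared 16, or 8.99% and 4.95%. Most shared clones of the first 2 pairs were 1-base variants in at least 1 of the libraries: 4 of 39 and 5 of 32 were not, against 14 of 16 in the third pair. TRBJ2-end clones were shared by the same pairs, with 98, 139 and 26 in the same order. WT tumor 3 and KO TDLN 3 shared 81 TRBJ2-end clones and 3 TRBJ1-end clones.

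In reads, the Morisita-Horn overlap, from 0 to 1, was 0.248 for WT tumor 4 with KO tumor 1 and 0.429 for KO tumor 2 with KO tumor 3, and at or below 0.1 for all other pairs. SQQGAG-GNTLYF carried the first, with 80283 reads in WT tumor 4 and 5516 in KO tumor 1, along with DVRA-GNTLYF (start CASS, named after its values were seen) with 847 and 984 reads. VGGAN-SDYTF carried the second with 9899 and 2747 reads. Of the pairs under a shared letter, WT tumor 4 with WT TDLN 4 shared 0 member clones and KO tumor 3 with KO TDLN 3 shared 2. How identical clones came to lie under different letters was not tested.

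**Figure D5:**
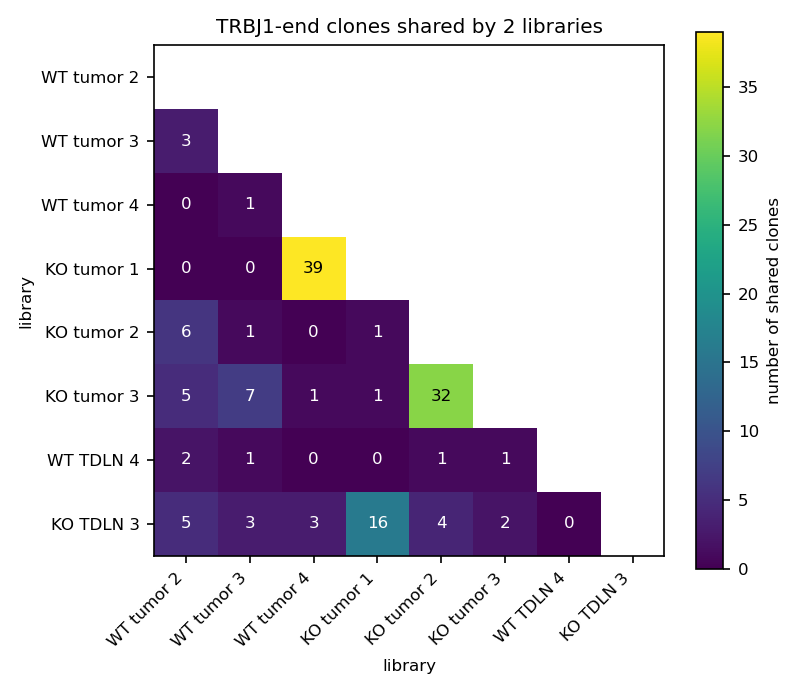
Number of TRBJ1-end clones, identical in every base, found in both libraries of a pair, for the 28 pairs of 8 libraries (rows and columns), with the number written in each cell and the colour running from 0 to 39. WT tumor 4 with KO tumor 1 (39) and KO tumor 2 with KO tumor 3 (32) hold the most (98 and 139 for TRBJ2-end clones, not drawn), and the pairs under a shared letter hold 0 and 2.

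Within tumor libraries, 25.3% ± 8.43 of TRBJ1-end clones and 29.0% ± 13.1 of TRBJ2-end clones (SD, n = 6) were also found under another letter, a difference of -3.72 points (exact sign-flip test, p = 0.469, adjusted 0.667). With 1-base variants left out it was 6.67 points and positive in 6 of 6 libraries, p = 0.03125 by the same exact test. Single-read clones made up 53.2% ± 6.22 and 50.8% ± 3.85, a difference of 2.45 points (exact sign-flip test, p = 0.344, adjusted 0.667), and -7.63 points without the variants.

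Similar sequences also occurred among large clones. Among 71 different amino acid sequences at 0.1% or more of a library's TRB reads, 10 pairs differed by 1 residue. The examples given here were chosen after their values were seen. Across libraries, DAKGR-GNTLYF of WT tumor 3 and DAKGA-GNTLYF of KO tumor 2 (both start CASG) differed at 5 bases. LAGAAN-TEVFF of WT tumor 3 and LAGTAN-TEVFF of WT tumor 4 (both start CAWS) differed at 4 bases. Within KO tumor 1, GTLNS-GNTLYF and WTLNS-GNTLYF lay 1 base apart, at 23.99% and 0.332% of TRB reads.

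Rows just outside the rule held few reads, but they were not few against the 1543 member rows. Rows with the last 4 residues of an end but another residue before them, or with an end but a start other than CA, numbered 301 with 4507 reads, which is 2.33% of the member reads. Most of these reads, 3635, lay in 76 rows ending EVFF without T before it. The TRBJ1-1 end, TEVFF, held 8622 member reads, so these rows are not small beside it. How they would change the TRBJ1-1 share was not tested. By rows, the largest class was an end with a start other than CA, with 161 rows and 469 reads.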

How the data were processed

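Per the labels' protocols, polyA RNA was amplified with primers for TCR transcripts, and the submitters' processing notes name GRCm39. Per the file headers the table of all chains is a TRUST4 report, of a version not given in the sources used here. Its deposited counts are reads per CDR3 rearrangement, and the authors' fraction is the share of a library and chain. Deposited counts of assembled reads come from the run log. The V names of TRB were not used, since many are human names. WT tumor 2 is numbered 1 in the deposited table and was matched by library name.

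Rows that were out of frame or held a stop or unread base were left out. Productive TRB reads are the remaining rows with a V, J or C name of TRB. A clone is 1 CDR3 base sequence in 1 library. Motifs were sought as written, on the coding strand. A 1-base variant lies 1 base from a clone at least 100 times larger.

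Tests were exact two-sided permutations over libraries, or sign flips within the 6 tumor libraries, at 0.05, with Benjamini-Hochberg adjustment over 16 values, in Python 3.11.15 with numpy 2.4.6, and were tested on simulated data. Clones named by rule are the 2 largest per library, per end the clone with the highest share of its library's member reads, and sequences under 4 or more letters. Others are marked as chosen after their values were seen. Members and lists were chosen with earlier results of these data known. Alternatives covered the definition of clones and ends, single reads, 1-base variants, shared clones, weighting and each library left out.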

Additional observations from a re-analysis of the deposited data

Results flagged for a closer look

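Rows that met the sequence rule but carried no TRB segment name held 382 reads in 13 rows, and they entered no comparison. Of these, 340 reads lay in KO tumor 3, and 328 of them were DN-QAPLF (start CAFR, named after its values were seen), whose CDR3 had a further 620 reads with a TRB name in the same library.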

How the results depend on the processing

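Of 232 recomputed values over 16 results, 182 kept their direction and their side of an unadjusted p of 0.05, 35 changed direction and 15 no longer passed. For KO against WT no p below 0.1 was possible, so only the direction could change there. Most values that no longer passed were sign-flip tests with 1 library left out, where 5 libraries allow no p below 0.0625. The counts are thus no measure of how firm the p-values are. Differences below are KO minus WT in tumor, or TRBJ1-end minus TRBJ2-end within tumor libraries. Where no reason is given, the cause was not tested. Leaving out every clone found under another letter gave 6.58 points for the share, -11.7, 1.38 and 10.9 points for the TRBJ1-2, TRBJ1-3 and TRBJ1-4 ends, -26.97 clones, 0.262 for clonality, 4.72 points for the largest clone, -18.6 points for GACTGG and -0.0160 points for single reads. That setting removed 85.4% to 98.5% of the member reads of a tumor library, also where the other library held a few reads. Its clone number was rarefied to 148 member reads, since each rarefied setting used the smallest number left in its tumor libraries. The next settings were chosen after seeing the data. Without the clones at 0.1% or more under 2 letters the values were 5.77 points for the share, -2.19, -5.04, 1.79 and 10.7 points for the TRBJ1-1 to TRBJ1-4 ends, -7.85 clones and 0.0239 for clonality. This setting removed 1.98% to 92.4% of the member reads of a tumor library. Without the largest TRBJ1-end clone of each library the values were 4.33 points for the share, 1.99 and 0.800 points for TRBJ1-3 and TRBJ1-4, and -12.9 clones. The middle differed by 0.150 residues as the whole CDR3 length and by -0.470 without the EQYF end, and GACTGG and GACAGG wholly within the middle by -20.8 and 7.19 points.

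Counting each clone once gave 0.992 points for the share and -0.415 and 0.584 points for TRBJ1-1 and TRBJ1-4. Weighting clones by reads gave -0.495 residues for the middle. Without 1-base variants, the number of clones differed by 7.92, recurrence by 6.67 points and single reads by -7.63 points. With each library left out in turn, the share ranged from -14.0 to 4.87 points, TRBJ1-1 from -0.306 to 0.461, TRBJ1-2 from 1.45 to 7.57, TRBJ1-3 from -21.7 to 0.330, TRBJ1-4 from -1.70 to 2.09, TRBJ1-5 from 0.000578 to 0.264 and TRBJ1-6 from -0.00251 to 0.0190. The number of clones ranged from 13.6 to 37.9, clonality from -0.174 to -0.0911, the largest clone from -30.7 to -14.9 points and the length from -1.40 to -0.594 residues. Recurrence ranged from -5.54 to -1.17 points and single reads from 0.630 to 4.38 points. The middle ranged from -0.592 to -0.476 residues, GACAGG from -1.30 to 11.4 points and GACTGG from -23.7 to -17.9 points. The middle and GACTGG kept their direction there, and 5 libraries allow no p below 0.0625. WT and KO tumor libraries share the numbers 2 and 3. With the number as a replicate block over these 2 pairs, TRBJ1-1 turned to -0.176 points and the share was -2.69 points, while the other 9 KO and WT differences kept their direction. Deviations from the group means over the 12 ends correlated at -0.745 for number 2 and 0.970 for number 3. Pairs with unlike numbers reached -0.958 (WT tumor 3 with KO tumor 1) and 0.883 (WT tumor 3 with KO tumor 2). With 3 libraries per group such correlations cannot decide whether the numbers pair the libraries. Depth limits ends at 0 to bounds of 0.00159% to 0.00562% in tumor.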
